A study of Homo sapiens with 4 samples.

Results

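ETV1 and 9 other transcription factors of the ETS family (ETV4, ETV5, ETS1, ETS2, ELF1, ELF3, ELK4, GABPA and SPDEF) were followed across 4 single-cell RNA-seq libraries of a prostate cancer line. They were taken by gene symbol, 10 of the 33538 genes in the count matrices, and all 10 were found. ETS proteins share a DNA-binding domain that reads a GGAA core, and many of them act at the end of growth factor and ERK kinase signalling. In prostate cancer the family is best known for rearrangements that place ERG, ETV1, ETV4 or ETV5 under the control of androgen-driven genes, and for epithelial members such as SPDEF, EHF and ELF3 that belong to the luminal cell. LNCaP cells are an androgen-sensitive line from a human prostate cancer metastasis. They carry an ETV1 rearrangement, in which the ETV1 locus of chromosome 7 lies within MIPOL1 on chromosome 14.

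The groups were LNCaP parental cells in the solvent DMSO (0.1%, 48 h), the same line given 10 µM of the antiandrogen enzalutamide (ENZ) for 48 h (LNCaP-ENZ48), and 2 resistant derivatives, RES-A and RES-B, each maintained in ENZ at 10 µM. RES-A had been derived with increasing ENZ and RES-B with the related compound RD-162, so the resistant lines differ in more than their outcome, and each stands for 1 derivation. Each group was 1 library of sorted living cells, with no replicate, so no test was possible: every interval given here covers counting error only, and a difference between libraries cannot be told apart from a difference between cultures or runs. The libraries kept 1782 to 4569 cells and 50208831 to 60838227 UMIs (unique molecular identifiers, each 1 captured RNA molecule), with a median of 27079.5 UMIs per cell in LNCaP against 12138 to 13676 in the others.

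Between 2 and 9 cell barcodes were shared by any pair of libraries, at most 0.281% of the smaller library. All 7 luminal epithelial markers reported here had UMIs in every library, although KLK3 (prostate-specific antigen) had 2 UMIs in RES-A. Of 3 basal and 3 leukocyte markers, at most 1 of each had any UMI in a library, and their summed level stayed at or below 0.299 and 0.105 CPM (UMIs scaled to a common library total). The 3 fibroblast markers summed to 1.46 to 3.21 CPM and the 2 endothelial markers to 0.115 to 1.04 CPM.

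The stretch before the start site is shown for ETV1, SPDEF and ELK4, whose levels were highest in LNCaP, and for ELF3, whose level was lowest there. The 250 bases before a RefSeq start are given on the gene's strand, 5′ to 3′, from GRCh38.p14. Capitals mark the only match to the ETS motif CCGGAAG in the stretches shown. ETV1 has several RefSeq starts, and the stretch shown lies before the one at the annotated start of the gene. The RefSeq start used for ELF3 lies 2642 bases downstream of the annotated start of that gene. Which start the cells use was not tested.
ETV1, chr7:13991426-13991675, minus strand: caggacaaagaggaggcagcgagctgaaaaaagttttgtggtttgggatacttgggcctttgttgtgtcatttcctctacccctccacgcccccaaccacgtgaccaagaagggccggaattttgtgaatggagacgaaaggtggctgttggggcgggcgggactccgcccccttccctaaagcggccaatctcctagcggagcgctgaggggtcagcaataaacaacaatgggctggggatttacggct
SPDEF, chr6:34556330-34556579, minus strand: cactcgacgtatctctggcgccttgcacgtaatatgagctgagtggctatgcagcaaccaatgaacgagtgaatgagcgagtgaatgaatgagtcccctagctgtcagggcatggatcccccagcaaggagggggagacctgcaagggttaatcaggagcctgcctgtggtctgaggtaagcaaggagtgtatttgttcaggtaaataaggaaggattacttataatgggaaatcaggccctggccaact
ELK4, chr1:205632012-205632261, minus strand: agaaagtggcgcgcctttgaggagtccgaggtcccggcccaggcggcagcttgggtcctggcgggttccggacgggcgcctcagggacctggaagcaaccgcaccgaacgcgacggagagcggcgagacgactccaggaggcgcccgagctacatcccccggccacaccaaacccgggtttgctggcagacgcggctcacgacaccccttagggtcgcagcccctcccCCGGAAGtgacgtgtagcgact
ELF3, chr1:202010337-202010586, plus strand: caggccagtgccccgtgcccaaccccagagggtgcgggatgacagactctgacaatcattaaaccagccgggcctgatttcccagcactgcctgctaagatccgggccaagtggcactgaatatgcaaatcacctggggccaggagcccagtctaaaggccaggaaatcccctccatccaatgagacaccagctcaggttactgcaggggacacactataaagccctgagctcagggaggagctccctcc

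RefSeq promoter entries (300 bases, from 250 before to 50 after the start) were found for 7 of the 10 genes, in 15 windows, and not for ETV4, ETV5 and ETS1. CCGGAAG, searched on both strands, was in 2 of the 15 windows, at 22 bases before the start of ELK4 and at 66 bases before that of GABPA, and in 10.3% of all 35116 windows of that length. These matches describe letters in a window and were not measured as binding sites.

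**Figure D1:**
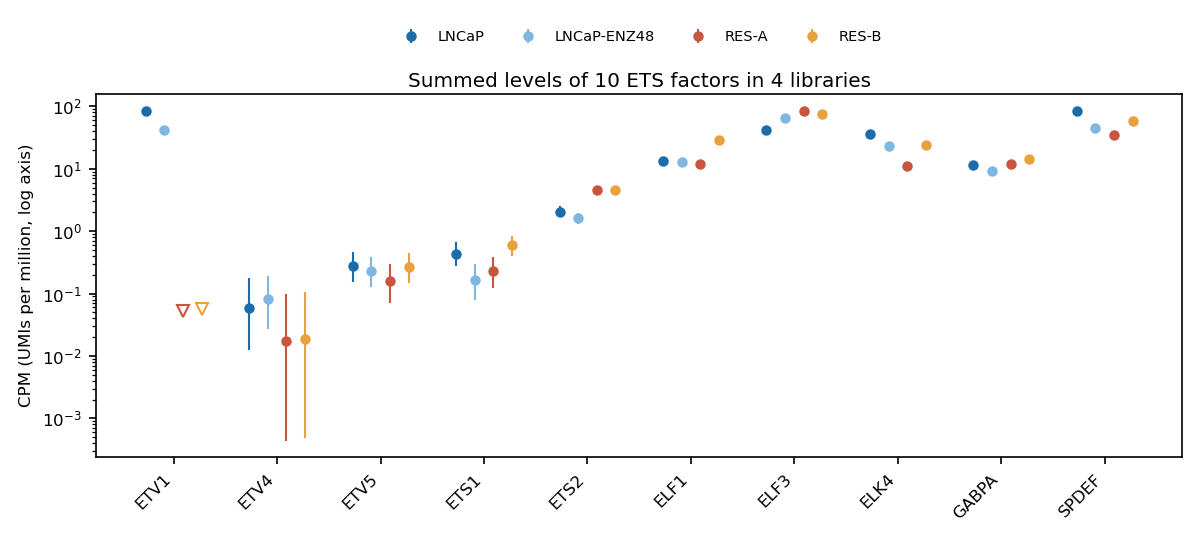
Level of each ETS factor (CPM on a log axis) in the 4 libraries, 1 point per library with its exact Poisson 95% interval. Open triangles mark ETV1 in RES-A and RES-B, at 0 UMIs and drawn at the floor of 3 UMIs; ETV4, ETV5 and ETS1 lie below 1 CPM in all libraries.

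Of the PEA3 subfamily, ETV1 (chromosome 7, 13891229 to 13991425, minus strand), ETV4 and ETV5, only ETV1 was present above 1 CPM. ETV1 stood at 84.8 CPM in LNCaP (95% interval 82.2 to 87.4, 4256 UMIs), 41.8 CPM in LNCaP-ENZ48 (40.2 to 43.4, 2541 UMIs), and 0 UMIs in both resistant lines. It was therefore 2.03-fold lower after 48 h of ENZ, a log2 ratio of -1.02 (-1.09 to -0.95), and RES-A lay at least 1620-fold below LNCaP, with 0 UMIs set to a floor of 3 per library. Measured from LNCaP-ENZ48, ETV1 was at least 798-fold lower (RES-A) or at least 732-fold lower (RES-B). The absence did not depend on the cell filter: no ETV1 UMI was found in any of the 5156 barcodes of RES-A or the 4907 of RES-B.

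Its relatives were scarce in every library. ETV4, which like ETV1 is a rearrangement target, had 3 UMIs in LNCaP, 5 in LNCaP-ENZ48 and 1 in either resistant line. ETV5 had 9 UMIs in RES-A and 14 in each of the others. At this depth no difference between libraries was detectable for either gene, since every interval of their ratios spanned 0.

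SPDEF (prostate-derived ETS factor, chromosome 6), a factor of luminal cells, was as abundant as ETV1 in LNCaP and did not disappear. Its level was 83.6 CPM in LNCaP, 45.8 CPM in LNCaP-ENZ48, 58.7 CPM in RES-B and 35.2 CPM in RES-A. LNCaP was highest and RES-A lowest, and neighbours in that order differed by more than counting error in each case. Against LNCaP the log2 ratio was -0.87 (-0.94 to -0.80) after ENZ, -1.25 (-1.33 to -1.17) in RES-A and -0.51 (-0.58 to -0.44) in RES-B, and RES-B stood 0.74 above RES-A (0.66 to 0.82). The 50 expressed coding genes around SPDEF had median log2 ratios of 0.01, -0.06 and 0.34 in these comparisons with LNCaP.

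ELK4 (chromosome 1), a ternary complex factor that binds DNA together with SRF, followed the same order with a wider range. It had 35.9 CPM in LNCaP, 23.03 CPM in LNCaP-ENZ48, 24.1 CPM in RES-B and 11.2 CPM in RES-A. The log2 ratio to LNCaP was -0.64 (-0.74 to -0.54) after ENZ, -1.68 (-1.81 to -1.55) in RES-A and -0.58 (-0.68 to -0.47) in RES-B, while LNCaP-ENZ48 and RES-B differed by less than counting error (0.06, -0.05 to 0.18). SLC45A3, a transporter gene beside ELK4 on the same strand, had 36.2, 6.99, 0.663 and 0.609 CPM (in the order LNCaP, LNCaP-ENZ48, RES-A, RES-B, kept below). Read-through RNA from SLC45A3 into ELK4 is known in prostate cells, and UMIs from 3′ ends would count it as ELK4, so both sources cannot be told apart here.

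ELF3, an epithelium-specific ETS factor also encoded on chromosome 1, went the other way. Its level was 41.5 CPM in LNCaP, 64.2 CPM in LNCaP-ENZ48, 74.8 CPM in RES-B and 82.8 CPM in RES-A. LNCaP was lowest and the 3 ENZ-exposed libraries were all higher, with log2 ratios of 0.63 (0.55 to 0.71), 1.00 (0.92 to 1.07) and 0.85 (0.77 to 0.93), and RES-A and RES-B differed by only -0.15 (-0.21 to -0.09). Around ELF3 the median log2 ratio of 50 genes was -0.13, 0.04 and 0.45. In RES-B the neighbours of ELF3 and of ELK4 (0.46) were thus both higher than the median of all expressed coding genes (0.12). The windows of ELF3 and ELK4 overlap on chromosome 1, so their medians are not separate observations. An antisense RNA, ELF3-AS1, overlaps ELF3 with 454 to 678 UMIs per library.

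ELF1, a broadly expressed factor encoded on chromosome 13, separated RES-B from the rest. It had 13.3 CPM in LNCaP, 13.0 CPM in LNCaP-ENZ48, 29.0 CPM in RES-B and 11.9 CPM in RES-A. LNCaP, LNCaP-ENZ48 and RES-A differed by less than counting error between neighbours in level, and RES-B stood 1.13 above LNCaP (0.99 to 1.26) and 1.28 above RES-A (1.15 to 1.41) on the log2 scale. The median of the 50 genes around ELF1 was 0.66 in RES-B against RES-A, and was -0.37 in RES-A and 0.28 in RES-B against LNCaP.

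ETS2 and GABPA lie on chromosome 21, where the expressed neighbours were higher in both resistant lines. ETS2, a target of ERK phosphorylation, was sparse at 2.05, 1.63, 4.52 and 4.62 CPM (103, 99, 259 and 243 UMIs), with log2 ratios to LNCaP of 1.14 (0.80 to 1.48) in RES-A and 1.17 (0.83 to 1.52) in RES-B. The 50 genes around ETS2 had medians of 0.49 in both lines. GABPA, the DNA-binding subunit of a regulator of mitochondrial and housekeeping genes, had 11.4, 9.34, 12.1 and 14.5 CPM in the same order. Its log2 ratio in RES-A was 0.09 (-0.07 to 0.25) while the median of its 34 neighbours was 0.51, and in RES-B it was 0.35 (0.19 to 0.51) with 33 neighbours at 0.55. ATP5PF, which overlaps GABPA on the opposite strand, had 19051 to 37576 UMIs.

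ETS1, best known from lymphoid and endothelial cells, had 22, 10, 13 and 31 UMIs per library. The 31 UMIs in RES-B and the 10 in LNCaP-ENZ48 lay at the ends of this range, a log2 ratio of 1.84 (0.78 to 3.04). That pair was picked as the ends after the counts were seen, and the interval does not allow for the choice. Libraries next to each other in ETS1 level did not differ beyond counting error.

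**Figure D2:**
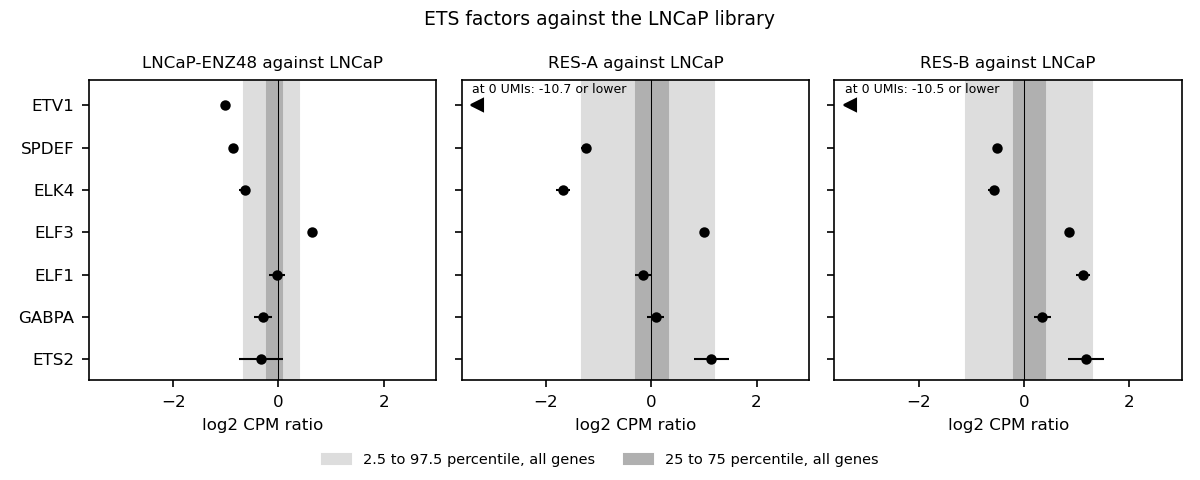
Log2 CPM ratio of 7 ETS factors in each library against LNCaP, with exact 95% intervals; grey bands give the middle 95% and the middle 50% of all genes whose mean reached 10 CPM. Triangles stand for ETV1 at 0 UMIs, beyond the axis. SPDEF and ELK4 lie left of 0 in all 3 panels and ELF3 right of it.

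Counted at a level of at least 10 CPM on average over both libraries, 6 of the 10 factors could be called in the comparisons with LNCaP (ETV1, SPDEF, ELK4, ELF3, ELF1 and GABPA). In LNCaP-ENZ48, 1 of the 6 (ETV1) lay at least 1 lower on the log2 scale and 0 lay that far higher, a call lost with TMM (-0.93) or median-of-ratios (-0.92) scaling; of 7282 expressed genes 0.645% were that far lower and 0.192% higher, 0.838% in all. In RES-A, 3 of 6 were lower (ETV1, ELK4 and SPDEF) and 0 higher, beside 4.15% lower and 3.74% higher of 7428 genes (7.89% in all). ELF3, at 0.998 in RES-A, fell just short of being called higher. In RES-B, ETV1 was lower and ELF1 higher, beside 3.08% lower and 4.82% higher of 7570 genes (7.9% in all). Between the resistant lines, 5 factors could be called, of which ELF1 and ELK4 were higher in RES-B and 0 lower, beside 3.37% higher and 1.7% lower of 7508 genes (5.07% in all). The factors were chosen with these levels known, and ETV1 passed the level limit in the resistant lines only through LNCaP, so nothing is read from these counts about the family.

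Of the other 18 ETS genes, only EHF, ELF2 and ELK1 reached 10 CPM in any library. EHF, an epithelial factor of the same branch as ELF3, was the most abundant ETS gene in LNCaP at 249.5 CPM, and had 181.4 CPM in LNCaP-ENZ48, 120.1 CPM in RES-B and 62.0 CPM in RES-A. UMIs from 3′ ends count molecules and are not scaled to length, so levels of different genes can be set side by side. The log2 ratio of EHF was -0.46 (-0.50 to -0.42) after ENZ, -2.01 (-2.06 to -1.95) in RES-A and -1.06 (-1.10 to -1.01) in RES-B, with medians of -0.02, 0.12 and -0.25 for its 50 neighbours. EHF thus had the order of SPDEF and ELK4 at its upper and lower end, LNCaP highest and RES-A lowest, and ELF3 the reverse. ELF2 stayed within 18.6 to 24.4 CPM and ELK1 within 8.51 to 10.8 CPM. ERG, the usual partner of TMPRSS2 in rearrangements, had 0 UMIs before resistance, 10 in RES-A and 16 in RES-B; SPIC, a macrophage factor, had 3, 1, 99 and 12 UMIs. FLI1 and ETV3L had 0 UMIs in all libraries. ERG and SPIC were picked out after their values were seen.

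Over the 8 ETS genes of 28 that passed the level limit, the median log2 ratio to LNCaP was -0.37 after ENZ, -0.19 in RES-B and -0.76 in RES-A, and 0.57 in RES-B against RES-A. In the same order, all expressed genes had medians of -0.07, 0.11, 0.02 and 0.09. Against LNCaP the 8 were 6 of the factors with EHF and ELF2, and between the resistant lines ELK1 took the place of ETV1. In RES-A and RES-B, ETV1 was among the 8 only through its LNCaP level and entered at the floor. The medians of these lines against LNCaP thus include a gene that could only be lower, and nothing is read from them about the family. With the limit lowered to 1 CPM, the family median was 0.13 in RES-A and 0.35 in RES-B, so the direction turned with the sparse genes included.

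**Figure D3:**
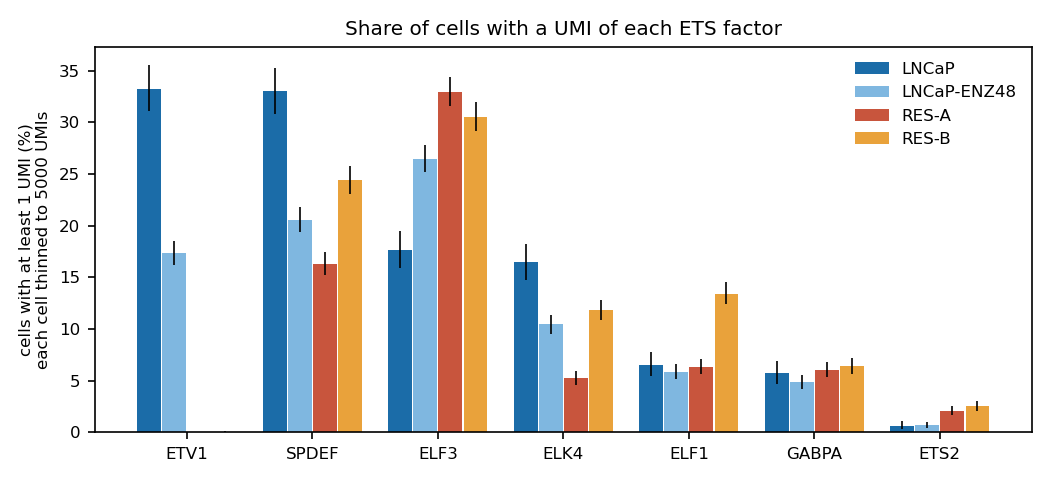
Share of cells (%) with at least 1 UMI of 7 ETS factors per library after every cell was thinned to 5000 UMIs, with exact binomial 95% intervals. ETV1 bars are missing in RES-A and RES-B because no cell had a UMI; ELF3 is the only factor with its lowest bar in LNCaP apart from ETS2, whose LNCaP and LNCaP-ENZ48 bars overlap.

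Because LNCaP cells held more UMIs than the others, shares of cells were compared after each cell was thinned to 5000 UMIs. ETV1 was then found in 33.3% of LNCaP cells (31.1% to 35.5%) and 17.4% of LNCaP-ENZ48 cells (16.2% to 18.5%), and unthinned in 72.6% and 35.4%. In RES-A it was found in 0 of 4569 cells, which allows a share of up to 0.0657%, and in RES-B in 0 of 4061, allowing up to 0.0739% (3 cells of the total). These limits are for cells with an ETV1 UMI after thinning, not for cells that express the gene. SPI1, a blood-lineage ETS factor, was in 0.123% to 0.393% of cells per library. The ETV1 shares of LNCaP and LNCaP-ENZ48 were far above that level.

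SPDEF was in 33.0%, 20.6%, 16.3% and 24.4% of cells per library, and ELF3 in 17.7%, 26.5%, 33.0% and 30.5%. ELK4 was in 16.4%, 10.5%, 5.23% and 11.8%, and ELF1 in 6.57%, 5.86%, 6.37% and 13.4%. GABPA was in 4.87% to 6.40% of cells. EHF covered 69.1% of LNCaP cells and 25.5% of RES-A cells. The shares kept the order of the summed levels for SPDEF, ELF3 and ELK4.

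ETV1 was spread over LNCaP cells less evenly than SPDEF, although both had nearly the same number of UMIs in that library (4256 and 4196). Unthinned, 72.6% of LNCaP cells had an ETV1 UMI and 85.4% an SPDEF UMI. Of 636 other genes with 0.8 to 1.25 times the ETV1 total, 19 were found in a smaller share of cells, and the median share was 86.5%. In LNCaP-ENZ48, 36 of 1082 genes of like level had a smaller share than the 35.4% of ETV1. In thinned cells the variance of ETV1 UMIs was 1.26 times the mean in LNCaP and 1.25 times in LNCaP-ENZ48, where SPDEF had 1.03 and 1.05 and ELK4 1.01 and 1.03. ELF3 lay between 1.11 and 1.25 over the 4 libraries. By called cell cycle phase, ETV1 gave 0.504 UMIs per thinned LNCaP cell in G1 (0.467 to 0.543) and 0.331 in G2/M (0.272 to 0.400), but 0.218 and 0.212 in LNCaP-ENZ48. ELF3 was the reverse in LNCaP, with 0.183 UMIs per cell in G1 (0.161 to 0.207) and 0.274 in G2/M (0.220 to 0.336).

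The uneven spread allowed cells of 1 library to be set against each other, a comparison that the choice of the 10 genes had not used. LNCaP cells were split into 488 with 0 ETV1 UMIs, 605 with 1 to 2 and 689 with 3 or more, with medians of 25144.5, 26686 and 28888 UMIs per cell. LNCaP-ENZ48 cells fell into 2787, 1287 and 241, with medians of 13238, 14325 and 15817 UMIs. The classes are ranges of a count and not cell types, and a cell with 0 UMIs can hold ETV1 RNA that was not captured. The split and the genes named from it were chosen after values were seen.

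SYT4, which encodes the vesicle protein synaptotagmin 4, was higher in cells with more ETV1 UMIs in both libraries. In LNCaP it stood at 20.05 CPM in cells with 0 ETV1 UMIs, 51.6 CPM with 1 to 2 and 142 CPM with 3 or more, a 7.07-fold difference between the outer classes (log2 2.82, 2.64 to 3.01). In LNCaP-ENZ48 it stood at 74.2, 137 and 311 CPM (log2 2.07, 1.97 to 2.16). Past 1 on the log2 scale between the outer classes were 14 of 7414 expressed genes in LNCaP (0.189%) and 14 of 7141 in LNCaP-ENZ48 (0.196%). Of 6975 genes expressed in both, SYT4 was the only one that far higher in both and MAP1B the only one that far lower in both. These counts are for classes by unthinned ETV1 UMIs, and were not repeated over all genes with thinned classes.

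MAP1B, a microtubule-binding protein typical of neurons, had 137, 85.2 and 54.1 CPM over the LNCaP classes from 0 to 3 or more ETV1 UMIs, and 136, 83.2 and 57.8 CPM over those of LNCaP-ENZ48. The log2 ratios of the outer classes were -1.34 (-1.45 to -1.23) and -1.23 (-1.43 to -1.04). With cells classed by their ETV1 UMIs after thinning (0 against 2 or more), MAP1B was lower by less, at -0.63 and -0.88. It was then not past 1 on the log2 scale in either library. SYT4 was still higher, at 2.20 in LNCaP and 2.31 in LNCaP-ENZ48, both outside the intervals of the unthinned classes. The library with the larger SYT4 ratio thus depended on how cells were classed.

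In the unthinned classes, KLK3 differed between the libraries in this respect. It had 430, 703 and 911 CPM over the LNCaP classes (log2 1.08, 1.04 to 1.13) but 95.9, 94.4 and 89.0 CPM over those of LNCaP-ENZ48 (-0.11, -0.27 to 0.05), which turned to 0.43 when cells were classed after thinning. SPDEF differed little between the outer classes, with log2 ratios of -0.14 in LNCaP and -0.10 in LNCaP-ENZ48. ELF3 and ELK4 were slightly lower in the ETV1-high cells of both libraries, at -0.33 and -0.31 in LNCaP and -0.43 and -0.37 in LNCaP-ENZ48. The share of cells called G2/M was 23.8% in LNCaP cells with 0 ETV1 UMIs and 12.2% in those with 3 or more, against 10.8% and 12.4% in LNCaP-ENZ48. Within cells called G1 alone the SYT4 log2 ratio was 2.64 and 2.03. Without the 5% of cells with the most UMIs it was 2.90 and 2.15, and doublets were not called.

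**Figure D4:**
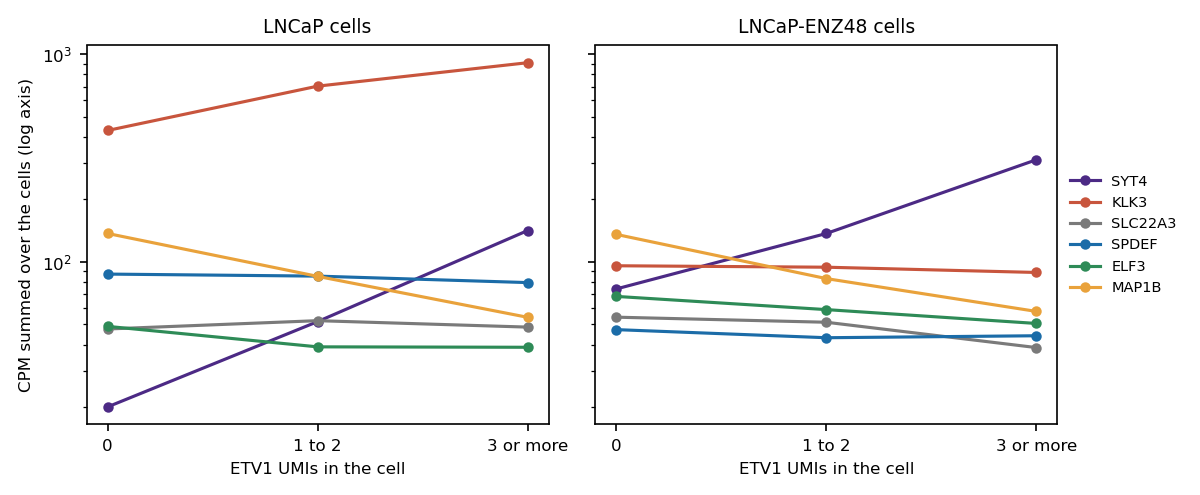
Level (CPM on a log axis) of 6 genes in cells grouped by the number of ETV1 UMIs in the cell, for LNCaP (left) and LNCaP-ENZ48 (right); each point is the sum over the cells of 1 class. SYT4 is higher and MAP1B lower with more ETV1 UMIs in both libraries, while KLK3, in these unthinned classes, differs beyond counting error in LNCaP and not in LNCaP-ENZ48, and SLC22A3 shows no like gradient.

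Across libraries the genes nearest to ETV1 were others. By the distance between log2(CPM + 1) profiles over the 4 libraries, among 8327 other genes with at least 10 CPM in a library, SLC22A3 (an organic cation transporter) came first, and PTGFR, TFPI and ADGRG6 were also among the 5 nearest. SLC22A3 had 49.5 and 52.3 CPM in LNCaP and LNCaP-ENZ48 and 0 UMIs in both resistant lines. The other 3 were at or below 0.780 CPM in RES-A and RES-B. None of these 4 lay past 1 on the log2 scale between the ETV1 classes of either library: the ratios ran from -0.40 to 0.27 in LNCaP and from -0.49 to 0.49 in LNCaP-ENZ48. SYT4 in turn was not like ETV1 across libraries, with 80.2, 109, 1.12 and 87.7 CPM, so that RES-B held SYT4 at the LNCaP level with 0 ETV1 UMIs. The nearest profiles to SPDEF were ATF3, SLC25A33 and ELOVL5, each highest in LNCaP and lowest in RES-A.

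**Figure D5:**
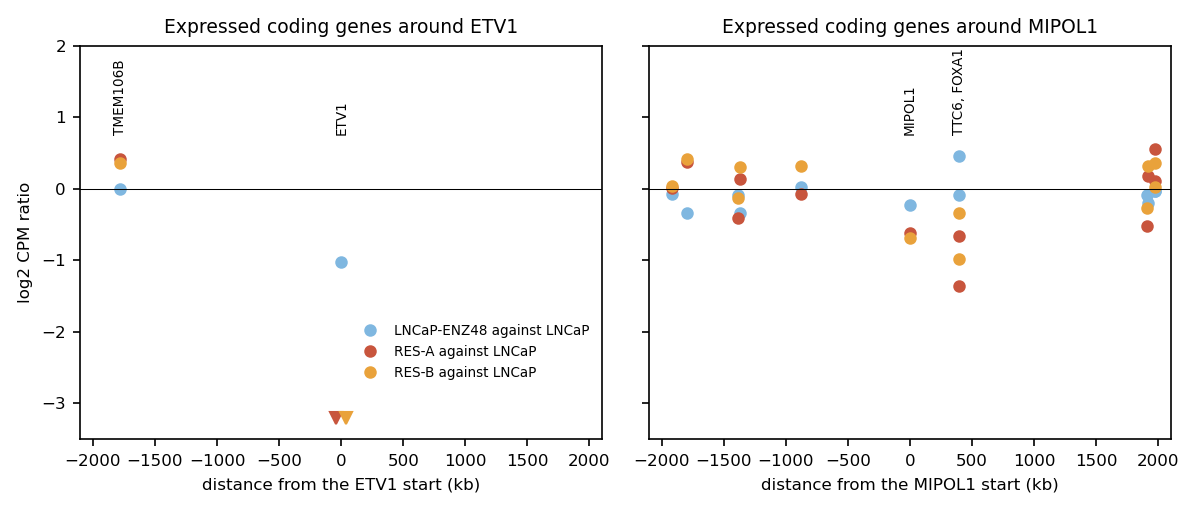
Log2 CPM ratio to LNCaP of coding genes with at least 10 CPM in a library, by distance (kb) of their start from that of ETV1 on chromosome 7 (left) and of MIPOL1 on chromosome 14 (right). Triangles mark ETV1 at 0 UMIs in RES-A and RES-B, beyond the axis; TMEM106B, the only other expressed gene near ETV1, is above 0 in both, while MIPOL1, TTC6 and FOXA1 are below 0 in both.

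Because LNCaP carries ETV1 at an extra place, the genes of both loci were read out. Within 2 Mb of the ETV1 start on chromosome 7 lie 9 coding genes, of which ETV1 and TMEM106B (a lysosomal membrane protein) reached 10 CPM. TMEM106B had 19.4, 19.4, 26.0 and 24.9 CPM, so log2 ratios of 0.42 and 0.36 in the resistant lines. The 50 expressed coding genes around ETV1 had medians of -0.08 after ENZ, -0.04 in RES-A and 0.02 in RES-B, close to those of all expressed coding genes (-0.08, 0.02 and 0.12).

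MIPOL1 (chromosome 14, 37197894 to 37579125, plus strand), the gene that holds the inserted ETV1 in LNCaP, was still expressed where ETV1 was not. It had 42.6, 36.3, 27.7 and 26.3 CPM in the 4 libraries, log2 ratios to LNCaP of -0.23 (-0.32 to -0.14), -0.62 and -0.70. TTC6, which lies just beyond MIPOL1, had 31.2, 43.0, 12.2 and 15.8 CPM, and its log2 ratio was 0.46 after ENZ, -1.35 in RES-A and -0.99 in RES-B. FOXA1, a pioneer transcription factor of luminal cells, had 156, 146, 98.6 and 123 CPM. MIPOL1, TTC6 and FOXA1 were thus all lower in both resistant lines. The nearest expressed genes on the other side were mixed: MBIP had 13.1, 13.2, 12.5 and 16.2 CPM, BRMS1L had 9.12, 7.23, 10.0 and 11.2 CPM, and RALGAPA1 had 38.6, 36.3, 29.1 and 35.3 CPM. UMIs do not show which copy of ETV1 an RNA came from, and whether the inserted copy is still present in RES-A and RES-B was not tested.

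Gene groups around the family were described by those members whose mean level reached 10 CPM. Of 10 ETS cofactors and regulators, 6 could be called and 0 lay past 1 on the log2 scale in any comparison with LNCaP, beside the 0.838%, 7.89% and 7.9% of all expressed genes, shares at which 0 of 6 says nothing particular to them. The lowest was CUL4A, a scaffold of the ligase that degrades ETV1 through COP1, at -0.83 in RES-A, where its 34 neighbours had a median of -0.49. The highest was COP1 itself, at 0.75 in RES-B with 50 neighbours at 0.42. Of 15 genes of ERK pathway output, DUSP4 and CCND1 could be called. DUSP4, a phosphatase that restrains ERK, had 43.3, 22.2, 8.88 and 0.799 CPM per library. Its log2 ratio was -0.97 after ENZ, -2.29 in RES-A and -5.76 in RES-B, where its 50 neighbours had a median of -0.77. CCND1 (cyclin D1) had 272, 263, 186 and 149 CPM.

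The 8 genes known as 5′ partners in ETS rearrangements of prostate cancer were all expressed. Of these, 3 were at least 1 lower on the log2 scale after ENZ, 3 in RES-B and 4 in RES-A, and 0 were that far higher against LNCaP. Of all expressed genes, 0.645%, 3.08% and 4.15% were that far lower in these comparisons. Some partners, such as KLK2 and TMPRSS2 in RES-A, reached the mean of 10 CPM only through LNCaP and could only be called lower. The list was also chosen with earlier results known, so nothing is read from these counts. KLK2, whose close copy KLK3 makes its level uncertain, had 319, 26.7, 0.0872 and 23.5 CPM. TMPRSS2, named after its values were seen, had 106, 25.5, 7.50 and 19.3 CPM. NDRG1, a stress and androgen responsive gene, was the highest of the 8 in RES-B at 0.78, and ACSL3, a fatty acid ligase, in RES-A at 0.34. After ENZ the log2 ratio was -1.02 for ETV1, -3.58 for KLK2, the lowest of the 8, and -0.23 for MIPOL1, which is not among the 8. A link between these differences was not tested.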

How the data were processed

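The deposited values are counts: UMIs per gene and cell barcode, which the authors made from droplet 3′ libraries with Cell Ranger 3.0.2 and its GRCh38 reference (per the labels and the file headers). Cells were kept by the limits the study gives for each library; doublets were not removed. UMIs were summed per library and scaled to CPM with exact Poisson 95% intervals. Log2 CPM ratios had exact conditional binomial (Clopper-Pearson) intervals, and 0 UMIs was set to a floor of 3. For shares, UMIs were drawn at random without replacement down to 5000 per cell (no kept cell had fewer). Phases were called in scanpy 1.11.5 with the lists of Seurat 5.3.0 (45 S and 54 G2/M genes). Scaling by TMM used edgeR 4.0.16. Coordinates came from GENCODE 44, matched by ID for 33113 of 33538 genes, which is newer than the matrices' annotation. The log2 ratios with their intervals and the thinning of cells were tested on simulated counts, and the other steps were not. With 1 library per group no test was run; the study's test over cells was left out because cells are not replicates. Whether the counting used strand is not given in the sources used here, so GABPA, ELF3 and ELK4, each overlapped by a gene on the opposite strand, are uncertain to that extent.

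The genes named were the 10 factors, other ETS genes with at least 10 CPM in a library, the highest and lowest expressed gene of each list per comparison, at most 5 expressed coding genes by nearness within 2 Mb of ETV1 and of MIPOL1, and the genes nearest in profile to ETV1 (5) and SPDEF (3). The factors and lists were chosen with earlier results of these data known. The classes of cells by ETV1 UMIs and the genes named from them were added after the data were seen. Alternatives were another cell filter, all barcodes, leaving out the 5% of cells with the most UMIs, TMM or median-of-ratios scaling, thinning to 5000 or 2000 UMIs, G1 cells only, other level limits and folds, and windows of 20 genes. An alignment of the ETS proteins was not run. Some items of the planned lists are not reported here.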

Additional observations from a re-analysis of the deposited data

How the results depend on the processing

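No paired analysis was possible because each group is 1 library. Of 249 recomputed log2 ratios of single ETS factors, 218 stayed within the counting interval of the reported value, 31 moved outside it and 0 turned direction beyond that interval; ETV1 in LNCaP-ENZ48 was -0.93 with TMM and -0.92 with median-of-ratios scaling, so that 0 factors in place of 1 lay past the fold there. Scaling moved the median of all genes to 0.0271 in LNCaP-ENZ48 (median-of-ratios) and to 0.00605 (TMM) and 0.0133 (median-of-ratios) in RES-B, and the family median to -0.27 in LNCaP-ENZ48 (median-of-ratios) and -0.30 in RES-B (TMM). With a fold of 0.5 in place of 1, the factors called were 4 in LNCaP-ENZ48 and 5 in RES-B, and the expressed genes past it 453, 2187 and 2220 against LNCaP and 1768 between the resistant lines. With a mean of at least 1 CPM the expressed genes past the fold were 192, 1892, 1651 and 1194 in the same order, and the family median was -0.11, 0.13, 0.35 and 0.26, with the direction turned in RES-A and RES-B. With at least 50 CPM they were 26, 181, 172 and 112, the factors called 1 in RES-A, 0 in RES-B and 0 between the resistant lines, and the family median -0.66, -1.25, -0.51 and 0.40. The causes were not tested, beyond the smaller or larger set of genes that each limit admits. The window of 20 genes turned the median around ELF1 in RES-B to -0.0548. Of 120 recomputed shares 69 moved outside their interval, as thinning to fewer UMIs or none sets the share. For SYT4, MAP1B and KLK3 between ETV1 classes, 10 of 18 values added after the data were seen stayed within the interval and 8 moved. Counts limit ETV4, ETV5 and ETS1, whose 1 to 31 UMIs per library could show only large differences.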
